A study of Mus musculus with 12 samples.

Results

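The genes described here are 10 members of the interleukin-1 and interleukin-36 cytokine system, measured in mouse back skin. They were chosen by name, with earlier results of these data known. They comprise the agonists *Il1a*, *Il1b*, *Il36a*, *Il36b* and *Il36g*, the antagonists *Il1rn* and *Il36rn*, the IL-36 receptor gene *Il1rl2*, and the related cytokines *Il33* and *Il18*. All 10 were found among the 56923 genes of the count table, and all 10 passed the filter on low counts that left 18529 genes for testing. RNA was sequenced from 12 female mice aged 8 to 10 weeks, 3 in each of 4 groups. WT littermates received vehicle cream (WT control) or 5% imiquimod (IMQ) cream (WT IMQ) on the shaved back every day for 6 days, and mice labelled Lcn2-/- on a C57BL/6 background received the same 2 creams. IMQ is an agonist of Toll-like receptor 7, and its repeated application produces psoriasis-like lesions in mouse skin. The sample titles name the genotype a knockout of *Lcn2*, which encodes the iron-carrier binding protein lipocalin-2, while another label calls it a knockdown and lists no treatment for the control mice. The study asked how loss of *Lcn2* changes the skin response to IMQ.

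The libraries held between 16448226 and 28592110 counts on genes, and 3 counts corresponded to between 0.0985 and 0.202 CPM (counts scaled to the normalized library size), a floor that covers counting error only. *Lcn2* itself was still counted in every library labelled Lcn2-/-. After IMQ these libraries all lay below WT IMQ, while the controls labelled Lcn2-/- did not lie below WT control. Its counts were 136, 201 and 86 in WT control, 1010, 2723 and 1572 in WT IMQ, 320, 173 and 357 in controls labelled Lcn2-/-, and 561, 511 and 830 in IMQ libraries labelled Lcn2-/-. The log2 fold change of *Lcn2* under IMQ was 4.03 in WT (edgeR, adjusted p = 8.10e-05) and 1.67 in mice labelled Lcn2-/- (adjusted p = 0.0121), and those mice differed from WT by -1.49 after IMQ (adjusted p = 0.0525) and by 0.87 in the controls (adjusted p = 0.794). The counts are totals per gene, so it cannot be told whether these reads lay in a part of the gene that a deletion would leave. Every direction below that involves the genotype therefore rests on the labels. The text on RNA extraction speaks of retinas, but 10 retinal markers summed to between 0.605 and 3.09 CPM in each library, whereas 12 keratinocyte markers summed to between 6751 and 48750 CPM.

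IL-1α, encoded by *Il1a*, and IL-1β, encoded by *Il1b*, bind the IL-1 receptor, and the IL-1 receptor antagonist encoded by *Il1rn* occupies the same receptor without starting a signal. The IL-36 cytokines are built the same way: IL-36α, IL-36β and IL-36γ activate the receptor encoded by *Il1rl2*, and the antagonist encoded by *Il36rn* blocks it. Both receptors recruit a shared accessory chain, the product of *Il1rap*, and signal through MyD88 and IRAK kinases to NF-κB. Keratinocytes are a main source of the IL-36 cytokines, of IL-1α and of IL-33, and inherited loss of the IL-36 receptor antagonist causes generalized pustular psoriasis in humans.

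In the mouse genome (GRCm38, GENCODE M21), 7 of the 10 genes lie on chromosome 2. *Il36b*, *Il36g*, *Il36a*, *Il36rn* and *Il1rn* follow each other on the plus strand between position 24153161 and position 24351494, between 8.05 and 8.23 Mb from *Lcn2*. *Il1a* (129299610 to 129309972) and *Il1b* (129364570 to 129371139) lie on the minus strand about 97 Mb from *Lcn2*. *Il1rl2* is on chromosome 1 (40324610 to 40367562), *Il33* on chromosome 19 (29925114 to 29960718) and *Il18* on chromosome 9 (50554827 to 50581840). The exons of *Il1a* and *Il1b* overlap antisense transcripts, *Gm14023* with 264 counts against 5034 for *Il1a*, and *Il1bos* with 294 against 8025 for *Il1b*, over all libraries. How the counting used strand is not given in the sources used here, so reads from these antisense pairs cannot be told apart.

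Most of these genes moved together under IMQ, and the sequences in front of their start sites are shown for that reason. RefSeq (GRCm38.p6) gave 13 start sites for 9 of the 10 genes, all but *Il36a*, and the 250 bases before each start were searched on both strands for 4 motifs. These were the AP-1 letters TGANTCA, the STAT letters TTCNNNGAA, the TATA letters TATAAA and the NF-κB consensus, of which no match overlapped another. The AP-1 letters stood before *Il1a* (12 to 6 bases upstream), the first start of *Il1rn* (141 to 135) and *Il36b* (236 to 230), and 6.75% of all 32851 RefSeq windows of this length hold them. The STAT letters stood before *Il36g* (128 to 120) and the second start of *Il36rn* (98 to 90), against 7.02% of all windows. TATA letters within 32 bases of the start were found for *Il1a*, *Il1b* and the second start of *Il33*, and further upstream for *Il1rl2*, *Il18* and the first start of *Il33*, while 12.4% of all windows hold them anywhere. None of the 13 windows held the NF-κB consensus, which 3.9% of all windows hold. A match of letters is a description and not a binding site. The windows of 5 genes are printed 5′ to 3′ on the gene's own strand, ending at the base before the start, with every matched motif in capitals.
Il1a (chr2:129309973-129310222, minus strand): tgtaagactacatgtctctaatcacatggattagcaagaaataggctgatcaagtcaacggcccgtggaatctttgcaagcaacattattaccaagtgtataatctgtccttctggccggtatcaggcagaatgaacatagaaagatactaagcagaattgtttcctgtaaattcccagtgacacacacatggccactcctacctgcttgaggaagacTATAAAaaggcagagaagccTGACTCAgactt
Il1b (chr2:129371140-129371389, minus strand): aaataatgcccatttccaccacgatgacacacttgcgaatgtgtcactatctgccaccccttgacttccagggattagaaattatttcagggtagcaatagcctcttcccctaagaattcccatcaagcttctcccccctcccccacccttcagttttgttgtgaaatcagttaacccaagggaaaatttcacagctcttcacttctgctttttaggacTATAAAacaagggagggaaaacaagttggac
Il1rn, first start (chr2:24336610-24336859, plus strand): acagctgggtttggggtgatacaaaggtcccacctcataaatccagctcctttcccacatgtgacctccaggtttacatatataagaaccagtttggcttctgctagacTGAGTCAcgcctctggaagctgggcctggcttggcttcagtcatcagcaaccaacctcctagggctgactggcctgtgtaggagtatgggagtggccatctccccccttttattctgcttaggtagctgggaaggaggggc
Il36g (chr2:24186226-24186475, plus strand): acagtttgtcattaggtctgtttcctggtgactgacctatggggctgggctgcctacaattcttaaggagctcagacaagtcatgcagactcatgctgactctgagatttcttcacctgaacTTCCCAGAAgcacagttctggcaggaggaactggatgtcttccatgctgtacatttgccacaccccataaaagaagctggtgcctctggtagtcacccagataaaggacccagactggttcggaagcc
Il33, second start (chr19:29945540-29945789, plus strand): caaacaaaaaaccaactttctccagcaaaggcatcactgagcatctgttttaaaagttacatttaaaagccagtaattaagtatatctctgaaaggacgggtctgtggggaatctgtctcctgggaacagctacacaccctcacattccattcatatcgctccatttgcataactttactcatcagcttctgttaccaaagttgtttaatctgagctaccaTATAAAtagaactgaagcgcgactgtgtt

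In WT skin, IMQ raised all 10 genes, from 1.68-fold for *Il1rl2* to 33.3-fold for *Il36a*. The 5 agonists had larger estimates than the 2 antagonists, and the receptor gene had the smallest. Each of the 10 was called higher (edgeR, adjusted p under 0.05 over all genes tested), against 14.2% of all genes tested that were called higher. For each of the 10 the lowest IMQ library lay above the highest control library, which was so for 20.1% of all genes tested. The median log2 fold change was 3.15 over the 10 genes and -0.02 over all genes tested. The same mice also differed in cell-type markers. All 12 keratinocyte markers were called higher in WT IMQ, with a median log2 change of 1.72, and 6 of 7 neutrophil markers were called higher, their sum going from between 7.66 and 23.7 CPM to between 144 and 180 CPM. Of the other cell types, 1 of 10 macrophage and monocyte and 2 of 4 endothelial markers were called higher. Called lower were 2 of 6 fibroblast, 4 of 5 T cell, 2 of 3 Langerhans cell and 1 of 5 mast cell markers. So were 4 of 5 skeletal muscle, 3 of 4 sebaceous gland and 3 of 5 hair follicle markers, against 14.3% of all genes tested. Limma voom called 0 of the hair follicle markers, whose sum was between 13.2 and 245 CPM in WT control. In bulk skin, more cells of a type and more RNA per cell cannot be told apart, and the part of these markers in the results on cytokines was not tested.

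**Figure D1:**
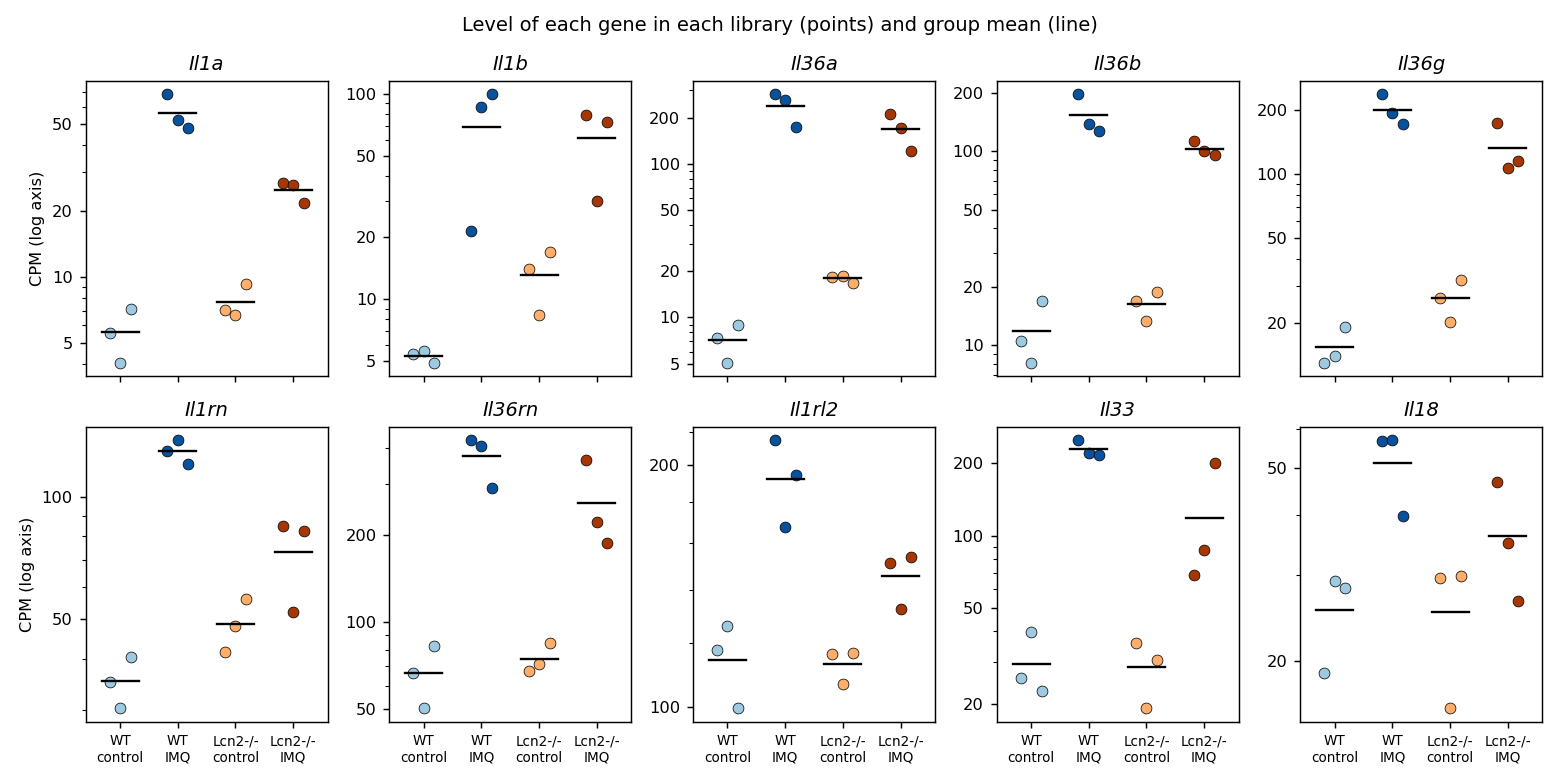
CPM of each of the 10 genes (vertical log axes, a different range in each panel) in each of the 12 libraries (points), grouped by genotype label and treatment, with the group mean as a line. In every panel the 3 WT IMQ points lie above the 3 WT control points, while in mice labelled Lcn2-/- the IMQ and control points of *Il1rn* and *Il18* share a range.

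Among the IL-36 agonists, *Il36a* was measured at 7.39, 5.07 and 8.99 CPM in WT control and at 283, 259 and 173 CPM in WT IMQ. This was the largest change of the 10, a log2 change of 5.06 (SE 0.28, adjusted p = 1.29e-06), and the 95% interval of the fold ran from 21.6 to 51.4. *Il36b* went from 10.5, 8.08 and 16.9 CPM to 197, 138 and 128 CPM, a log2 change of 3.71 (SE 0.27, adjusted p = 4.48e-06). *Il36g* went from 13.1, 14.1 and 19.1 CPM to 236, 194 and 172 CPM, a log2 change of 3.70 (SE 0.25, adjusted p = 2.46e-06). The 3 agonists shared the same order of the IMQ libraries, with WT IMQ 1 highest and WT IMQ 3 lowest, and no IMQ library came near the control range.

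The IL-1 agonists rose by similar amounts but with unequal spread. *Il1a* was at 5.55, 4.04 and 7.13 CPM in WT control and at 68.2, 52.1 and 47.9 CPM in WT IMQ, a log2 change of 3.33 (SE 0.23, adjusted p = 2.88e-06). *Il1b* was at 5.41, 5.59 and 4.89 CPM in WT control and at 21.5, 86.2 and 99.5 CPM in WT IMQ, a log2 change of 3.70 (SE 0.55, adjusted p = 0.000645). WT IMQ 1, which held the most *Il1a* and the most of each IL-36 agonist, held the least *Il1b*. The SE of *Il1b* was the largest of the 10 genes, and its fold had a 95% interval from 5.62 to 30.2.

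The antagonists had smaller estimates than their agonists. *Il1rn* was at 35.1, 30.2 and 40.4 CPM in WT control and at 130, 138 and 120 CPM in WT IMQ, a log2 change of 1.88 (SE 0.19, adjusted p = 3.54e-05). *Il36rn* was at 66.5, 50.2 and 82.3 CPM in WT control and at 425, 406 and 289 CPM in WT IMQ, a log2 change of 2.49 (SE 0.27, adjusted p = 6.41e-05). The groups stood clear of each other for both. The receptor gene *Il1rl2* went from 118, 126 and 99.6 CPM to 215, 167 and 194 CPM, a log2 change of 0.75 (SE 0.12, adjusted p = 0.00116), with little spread in either group.

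Of the 2 related cytokines, *Il33*, an alarmin stored in the nucleus of barrier cells, went from 25.7, 39.6 and 22.6 CPM to 250, 220 and 217 CPM, a log2 change of 2.96 (SE 0.39, adjusted p = 0.000298). The 3 WT IMQ libraries differed less in *Il33*, in proportion, than the controls did. *Il18*, whose product needs cleavage by caspase-1, went from 18.9, 29.2 and 28.3 CPM to 56.8, 57.0 and 39.7 CPM, a log2 change of 1.01 (SE 0.28, adjusted p = 0.0201). The call on *Il18* did not hold in 3 of the 6 fits without 1 WT library (without WT control 1, WT IMQ 1 or WT IMQ 2), with an adjusted p of up to 0.0794.

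In mice labelled Lcn2-/-, 8 of the 10 genes were called higher under IMQ, against 14.1% of all genes tested, and 8 had IMQ libraries that all lay above the controls, against 23.1%. The median log2 fold change was 1.93, against -0.05 over all genes tested. Every one of the 10 estimates was smaller than in WT. The sum of the keratinocyte markers went from between 7658 and 10050 CPM to between 21630 and 33360 CPM in these mice, with 7 of 12 called higher, and the neutrophil sum went from between 9.54 and 30.8 CPM to between 194 and 499 CPM, with 7 of 7 called higher. Of the macrophage and monocyte markers 8 of 10 were called higher, with a sum going from between 1292 and 2599 CPM to between 5185 and 7375 CPM. So were 4 of 6 fibroblast, 3 of 4 endothelial and 2 of 5 mast cell markers. Called lower were 2 of 3 Langerhans cell, 2 of 5 skeletal muscle, 3 of 4 sebaceous gland and all 5 hair follicle markers, against 11.2% of all genes tested. Limma voom called 0 of the hair follicle markers, whose sum was between 39.2 and 885 CPM in these controls. The part of these markers in the cytokine values was not tested.

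*Il36a* again changed most, from 18.3, 18.7 and 16.9 CPM to 209, 171 and 122 CPM, a log2 change of 3.22 (SE 0.26, adjusted p = 2.06e-05). *Il36b* went from 16.8, 13.3 and 18.7 CPM to 113, 100.3 and 95.7 CPM, a log2 change of 2.66 (SE 0.26, adjusted p = 6.70e-05). *Il36g* went from 26.2, 20.3 and 32.1 CPM to 173, 107 and 115 CPM, a log2 change of 2.33 (SE 0.23, adjusted p = 7.87e-05). For all 3 agonists IMQ 1 held the most, as in WT.

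*Il1a* went from 7.06, 6.66 and 9.24 CPM to 26.8, 26.2 and 21.7 CPM in mice labelled Lcn2-/-, a log2 change of 1.70 (SE 0.22, adjusted p = 0.000386). *Il1b* went from 14.0, 8.37 and 17.0 CPM to 79.3, 30.0 and 73.1 CPM, a log2 change of 2.21 (SE 0.51, adjusted p = 0.0101). As in WT, 1 library held far less *Il1b* than the other 2, here IMQ 2, and with no filter on low counts its adjusted p was 0.0544.

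The antagonist *Il1rn* had the smallest rise of the 8 genes called. It was at 41.5, 48.3 and 56.1 CPM in controls labelled Lcn2-/- and at 84.7, 52.3 and 82.3 CPM after IMQ, a log2 change of 0.59 (SE 0.18, adjusted p = 0.0354). IMQ 2 lay within the control range, and the call did not hold in 4 of the 6 fits without 1 library (without control 1 or 2 or IMQ 1 or 3, adjusted p of up to 0.128). It held in 7 of the 9 other settings, and upper-quartile scaling (adjusted p = 0.0613) was among those that lost it. *Il36rn* went from 67.6, 71.2 and 84.1 CPM to 364, 221 and 188 CPM, a log2 change of 1.79 (SE 0.26, adjusted p = 0.000814), with no overlap.

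The receptor gene *Il1rl2* went from 116, 107 and 117 CPM to 151, 133 and 154 CPM, a log2 change of 0.36 (SE 0.12). Its adjusted p was 0.05004, just above the threshold, although the IMQ libraries all lay above the controls. It passed in 4 of the 9 other settings, under RLE size factors, DESeq2 and edgeR on the compared mice only. It was called in 0 of the 6 fits without 1 library (adjusted p between 0.0586 and 0.150). *Il33* was at 35.8, 19.2 and 30.3 CPM in controls and at 68.4, 87.1 and 201 CPM after IMQ, a log2 change of 2.06 (SE 0.38, adjusted p = 0.00314). The third IMQ library stood apart for *Il33*, and it also held the largest neutrophil marker sum, 499 CPM against 242 and 194 CPM. Without that library the log2 change of *Il33* was 1.45 (adjusted p = 0.00773). *Il18* was at 29.7, 15.98 and 29.9 CPM in controls and at 46.7, 35.0 and 26.6 CPM after IMQ, so that the groups overlapped, with a log2 difference of 0.52 (SE 0.28, adjusted p = 0.197).

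**Figure D2:**
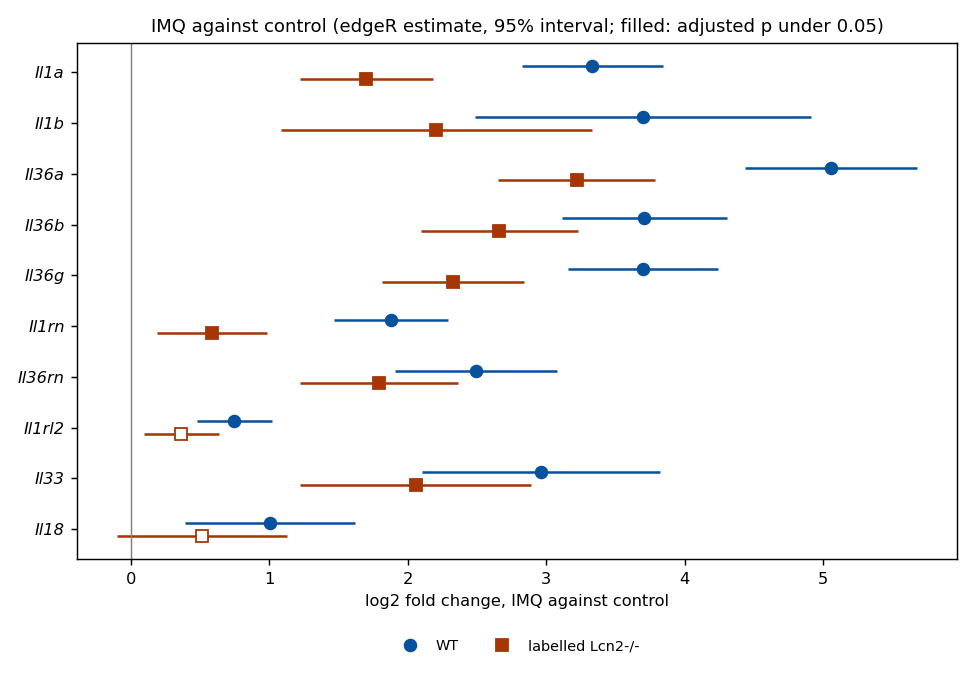
Log2 fold change of IMQ against control (horizontal axis) for each of the 10 genes, as the edgeR estimate with its 95% interval, in WT mice (circles) and in mice labelled Lcn2-/- (squares), filled where the adjusted p was under 0.05. The WT estimate lies to the right of the other in every row, and the 2 open squares are *Il1rl2* and *Il18*.

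After IMQ, the members were at a lower estimated level in mice labelled Lcn2-/- than in WT, and 2 of the 10 were called lower, against 2.6% of all genes tested. *Il1a* was at 0.444 of the WT level (log2 fold change -1.17, SE 0.21, adjusted p = 0.0237) and *Il1rn*, its antagonist, at 0.565 of it (log2 fold change -0.82, SE 0.18, adjusted p = 0.0353). For *Il1a*, *Il1rn*, *Il36b*, *Il1rl2* and *Il33* (5 of 10) all libraries labelled Lcn2-/- lay below all WT libraries, against 17.3% of all genes tested. The median log2 fold change was -0.56 over the 10 genes and -0.02 over all genes tested. Neither call held in 5 of the 6 fits without 1 IMQ library (all but the fit without WT IMQ 2), with an adjusted p of up to 0.135 for *Il1a* and 0.157 for *Il1rn*. Over all genes, between 0 and 3 were called lower in those 5 fits, and 1438 of 19248 in the fit without WT IMQ 2, against 481 of 18529 with all mice.

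The 8 genes not called by edgeR lay between *Il33*, with a log2 difference of -0.95 (95% interval -1.75 to -0.14, adjusted p = 0.131), and *Il1b*, with a log2 difference of -0.18 (-1.25 to 0.88, adjusted p = 0.840). The 3 IL-36 agonists were close to each other, at -0.51 for *Il36a* (adjusted p = 0.195), -0.58 for *Il36b* (adjusted p = 0.152) and -0.61 for *Il36g* (adjusted p = 0.113). *Il36rn* was at -0.54 (adjusted p = 0.197), *Il18* at -0.50 (adjusted p = 0.266) and *Il1rl2* at -0.40 (adjusted p = 0.0768). The intervals of *Il36b*, *Il36g*, *Il1rl2* and *Il33* left out 0 before adjustment, which makes 6 of the 10 with an unadjusted p under 0.05 and a lower level, against 14.5% of all genes tested. Limma voom also called *Il1a* and *Il1rn*, and DESeq2 on all 12 mice called these and *Il1rl2*. Without the third IMQ library labelled Lcn2-/-, the log2 difference of *Il33* was -1.55 (adjusted p = 0.0581). For *Il1b*, the interval ran from 2.38-fold below to 1.84-fold above the WT level, so a difference of either sign was not detectable at this spread.

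Markers of keratinocytes moved the same way in this comparison. All 12 had a negative log2 fold change, with a median of -0.79. EdgeR called *Dsc3*, *Dsg3* and *Trp63* lower, against 2.6% of all genes tested. These calls did not hold without WT IMQ 1, WT IMQ 3, or IMQ 2 or 3 labelled Lcn2-/-, where 0 of all genes were called lower. Limma voom called only *Trp63*, and DESeq2 called 9 of the 12. In edgeR 10 of the 12 were lower at an unadjusted p under 0.05, against 14.5% of all genes tested. The keratinocyte sum was between 36980 and 48750 CPM in WT IMQ and between 21630 and 33360 CPM in IMQ libraries labelled Lcn2-/-. The fibroblast sum was between 10040 and 10600 CPM in WT IMQ and between 19630 and 20460 CPM in IMQ libraries labelled Lcn2-/-, with 3 of 6 markers called higher, against 2.19% of all genes tested. Without WT IMQ 1, WT IMQ 3 or IMQ 3 labelled Lcn2-/-, 0 of all genes were called higher. The neutrophil sum was between 144 and 180 CPM in the former and between 194 and 499 CPM in the latter, and the macrophage and monocyte sum was between 3383 and 5394 CPM and between 5185 and 7375 CPM. Of these 2 lists, edgeR called 0 markers, with 2 of 7 and 2 of 10 at an unadjusted p under 0.05, limma voom called 0 and DESeq2 called 1 in each. The share of all genes higher at that p was not computed. All mast cell (median 0.71), T cell (0.83), endothelial (0.73), adipocyte (0.94) and skeletal muscle markers (0.39) had a positive log2 fold change. Negative were 4 of 5 hair follicle, 3 of 4 sebaceous gland and 1 of 3 Langerhans cell markers. In these further lists edgeR called only *Kit*, a mast cell marker, against 2.19% of all genes tested. The part of these differences in the cytokine values was not tested.

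In the controls the estimates of the agonists pointed the other way. Of the 10 genes, edgeR called 0 higher or lower between controls labelled Lcn2-/- and WT controls, where 0.0054% of all genes tested were called in each direction, but 4 had an unadjusted p under 0.05 and all 4 were higher in mice labelled Lcn2-/-, where 2.65% of all genes tested were higher at that p. These were *Il36a*, 2.52-fold higher (log2 fold change 1.33, SE 0.25, unadjusted p = 0.000225, adjusted p = 0.208), *Il1b*, 2.48-fold higher (1.31, SE 0.52, unadjusted p = 0.0284, adjusted p = 0.714), *Il36g*, 1.70-fold higher (0.76, SE 0.23, unadjusted p = 0.00623, adjusted p = 0.583) and *Il1rn*, 1.38-fold higher (0.47, SE 0.18, unadjusted p = 0.0266, adjusted p = 0.706). The same 4 genes had control libraries labelled Lcn2-/- that all lay above the WT controls, against 4.19% of all genes tested. For *Il36a* the WT controls reached 8.99 CPM at most and the controls labelled Lcn2-/- were 16.9 CPM at least. Limma voom called 0 of the 10, and DESeq2 called *Il36a* on all 12 mice, and *Il36a* and *Il1b* on the 6 control mice alone. *Il1a* (0.46), *Il36b* (0.46) and *Il36rn* (0.16) had log2 differences above 0 with groups that overlapped, and *Il1rl2*, *Il33* and *Il18* were within 0.05 of 0, with signs that changed with the size factors for *Il1rl2* and *Il18*. Among the cell types, all 10 macrophage and monocyte markers had a negative log2 difference in these controls (median -0.96), of which 5 had an unadjusted p under 0.05, against 3.95% of all genes tested that were lower at that p, and edgeR, limma voom and DESeq2 called 0 of them. The same 3 tools called 0 of the 12 keratinocyte markers, and 0 of these had an unadjusted p under 0.05 in edgeR. All 5 hair follicle markers were higher (median 1.04), *Krt31* and *Krt33a* at that p. Their sums overlapped, with 13.2 to 245 CPM in WT control and 39.2 to 885 CPM in controls labelled Lcn2-/-. All 6 fibroblast (median -0.30) and all 5 skeletal muscle markers (-0.46) were lower, with 1 of each at that p. The 3 tools called 0 markers of these lists. The part of these markers in the cytokine values was not tested.

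The difference between the IMQ responses, tested as an interaction, joins these comparisons and shares their libraries. All 10 estimates were negative, meaning a smaller IMQ response in mice labelled Lcn2-/-, and 3 of 10 were called lower, against 0.783% of all genes tested. *Il36a* differed by -1.84 on the log2 scale (SE 0.35, adjusted p = 0.0311), *Il1a* by -1.63 (SE 0.31, adjusted p = 0.0310) and *Il1rn* by -1.29 (SE 0.26, adjusted p = 0.0375). *Il36g* missed the threshold narrowly at -1.37 (SE 0.32, adjusted p = 0.0506), and *Il36b* at -1.05 (adjusted p = 0.110) and *Il1b* at -1.49 (adjusted p = 0.225) were not called by edgeR. *Il36rn* differed by -0.70 (adjusted p = 0.251), *Il1rl2* by -0.38 (adjusted p = 0.206), *Il33* by -0.905 (adjusted p = 0.302) and *Il18* by -0.49 (adjusted p = 0.465). Limma voom called the same 3 genes as edgeR, and DESeq2 called these, *Il36b* and *Il36g*. In edgeR 6 of the 10 had an unadjusted p under 0.05, against 11.9% of all genes tested that were lower at that p. The median was -1.17 over the 10 genes and -0.02 over all genes tested, and that of the 12 keratinocyte markers was -0.82, with 0 called by edgeR or limma voom, 8 at an unadjusted p under 0.05 and 5 called by DESeq2. Fibroblast markers differed the other way, with a median of 1.14 and 3 of 6 called higher by edgeR, against 1.37% of all genes tested. All 10 macrophage and monocyte markers were also positive, with a median of 1.77, 0 called by edgeR or limma voom, 5 called by DESeq2 and 7 at an unadjusted p under 0.05, against 12.3% of all genes tested that were higher at that p. Of the 5 hair follicle markers 4 were negative (median -1.35), with 2 at an unadjusted p under 0.05. EdgeR and limma voom called 0 of them and DESeq2 called 1. The part of these markers in the interaction was not tested.

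The 3 genes called in the interaction differed in which libraries carried it. For *Il36a*, the estimate for the controls (1.33) was larger in size than that after IMQ (-0.51). For *Il1a*, the estimate after IMQ (-1.17) was larger in size than that for the controls (0.46), and *Il1rn* was alike with -0.82 and 0.47. The calls depended on the mice in the fit: the number of members called lay between 0 and 5 when 1 of the 12 libraries was left out, and was 0 in 8 of those 12 fits (without WT control 1, WT IMQ 1 or 3, control 2 or 3 labelled Lcn2-/-, or any IMQ library labelled Lcn2-/-). The calls over all genes moved with them: in those 8 fits between 0 and 47 genes were called lower, and in the other 4 between 45 and 912, against 145 with all 12 libraries.

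**Figure D3:**
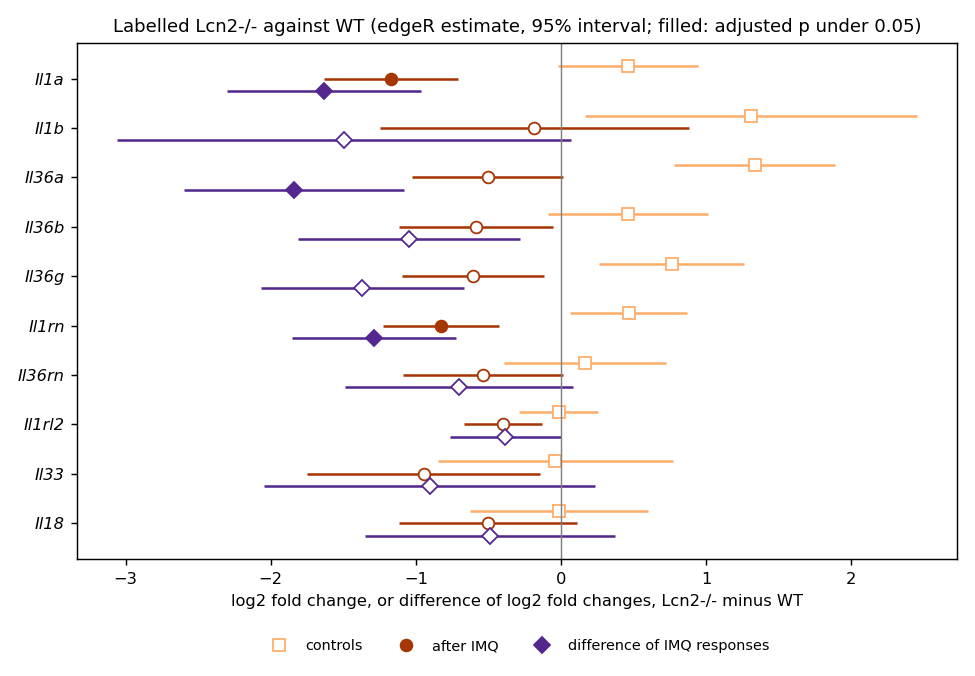
Differences between mice labelled Lcn2-/- and WT on the log2 scale (horizontal axis) for each of the 10 genes, as edgeR estimates with 95% intervals, in the controls (squares), after IMQ (circles) and as the difference between the IMQ responses (diamonds), filled where the adjusted p was under 0.05. All 10 circles and diamonds lie left of 0, only *Il1a* and *Il1rn* have a filled circle, and *Il36a* has the rightmost square.

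Agonist and antagonist reads were set against each other within each library, a ratio that does not depend on library size. These ratios are descriptions with no test, and they compare read counts of genes of unequal length, so they are read between groups only. The *Il36a* to *Il36rn* ratio was 0.107 ± 0.00537 (SD, n = 3) in WT control and 0.633 ± 0.0344 in WT IMQ. In mice labelled Lcn2-/- it was 0.245 ± 0.0384 in controls and 0.667 ± 0.101 after IMQ. The control libraries of the genotypes did not overlap, with 0.101 to 0.111 in WT and 0.201 to 0.271 in mice labelled Lcn2-/-, whereas after IMQ the WT range (0.596 to 0.665) lay inside that of mice labelled Lcn2-/- (0.576 to 0.776).

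The other 2 IL-36 agonists had a similar ratio to *Il36rn* in the IMQ groups of both genotypes. *Il36b* to *Il36rn* was 0.415 ± 0.0663 in WT IMQ and 0.425 ± 0.103 in IMQ libraries labelled Lcn2-/-, from 0.175 ± 0.0267 and 0.219 ± 0.0314 in the controls. *Il36g* to *Il36rn* was 0.542 ± 0.0597 and 0.525 ± 0.0775 after IMQ, from 0.237 ± 0.0427 and 0.351 ± 0.0575 in the controls. The IMQ ratios of the genotypes overlapped for both. The control ratios of the genotypes overlapped for *Il36b*. For *Il36g* they did not, with 0.197 to 0.282 in WT and 0.285 to 0.388 in mice labelled Lcn2-/-.

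For IL-1, the *Il1a* to *Il1rn* ratio was 0.156 ± 0.0214 in WT control and 0.434 ± 0.0806 in WT IMQ, and 0.158 ± 0.0172 and 0.360 ± 0.125 in mice labelled Lcn2-/-. The control ratios of the genotypes were almost equal and the IMQ ratios overlapped. The *Il1b* to *Il1rn* ratio was 0.153 ± 0.0319 in WT control and 0.539 ± 0.339 in WT IMQ, where WT IMQ 1 (0.165) stayed within the control range of 0.121 to 0.185. It was 0.271 ± 0.0864 in controls labelled Lcn2-/- and 0.799 ± 0.197 after IMQ, the highest mean of the 4 groups, with a range (0.574 to 0.937) that overlapped that of WT IMQ (0.165 to 0.827).

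**Figure D4:**
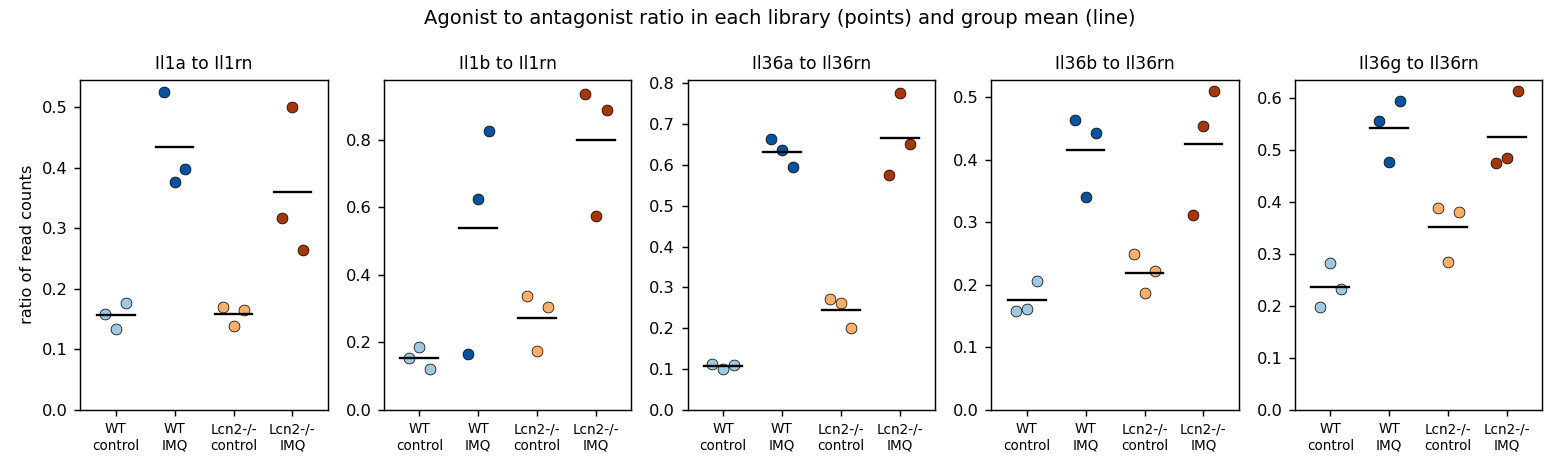
Ratio of agonist to antagonist read counts (vertical axes, from 0) in each of the 12 libraries (points), with the group mean as a line, for *Il1a* and *Il1b* against *Il1rn* and for the 3 IL-36 agonists against *Il36rn*. The *Il36a* ratio is near 0.1 in the 3 WT controls and between 0.201 and 0.271 in controls labelled Lcn2-/-, and the IMQ points of the genotypes share a range in all 5 panels.

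Between genes, levels were compared per kilobase of merged exon length. In WT control the order was led by *Il18* (24.7 ± 5.54 CPM per kb, SD, n = 3), *Il1rl2* (16.8 ± 1.99) and *Il36rn* (14.8 ± 3.57), and the agonists *Il1a* (2.82 ± 0.781) and *Il1b* (2.78 ± 0.189) came last. The 4 genes after the first 3, *Il33* (10.2), *Il36b* (9.72), *Il36g* (9.38) and *Il36a* (8.10 CPM per kb), lay within each other's spread. *Il1rn* (6.37 ± 0.921) came eighth, and its range overlapped those of *Il36a* and *Il36b*. In WT IMQ the order turned to *Il36a* (269 ± 65.5), *Il36b* (127 ± 30.7) and *Il36g* (122 ± 19.7), and *Il36a* stood above the other 2 in every library while *Il36b* and *Il36g* lay within each other's spread. *Il36rn* (83.1 ± 16.3) and *Il33* (79.3 ± 6.30) followed, then *Il18* (49.6 ± 9.66) and *Il1b* (36.2 ± 21.9), and *Il1a* (28.4 ± 5.43), *Il1rl2* (28.2 ± 3.51) and *Il1rn* (23.4 ± 1.61) were last.

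By merged exon length, IMQ libraries labelled Lcn2-/- had the same first 7 genes in the same order, from *Il36a* (190 ± 49.6 CPM per kb) to *Il1b* (31.9 ± 14.1), and *Il1a* came last at 12.6 ± 1.41. In controls labelled Lcn2-/-, *Il36a* was second at 20.4 ± 1.09, behind *Il18* at 24.4 ± 7.73, where in WT control it was seventh. The lengths sum all annotated exons of a gene, which lowers the value of genes with several long transcripts such as *Il1rn* and *Il1rl2*. With the longest transcript as the length the order changed: *Il36rn* became second in both IMQ groups, *Il1b* stood ahead of *Il18* in IMQ libraries labelled Lcn2-/- but behind it in WT IMQ, *Il1rl2* came first in both control groups, and *Il36a* stood behind *Il1rl2*, *Il18* and *Il36rn* in controls labelled Lcn2-/-.

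Over the 12 libraries, which include both treatments and share library size and composition, the genes most like *Il36a* in log2 CPM were *Lpo*, *Serpinb3a* and *Teddm3* (Pearson r of 0.989, 0.988 and 0.988). *Il36g* (r = 0.987) and *Il36b* (r = 0.985) ranked 5 and 8 among all genes tested. The genes most like *Il1b* were *Acod1*, *Gpr84* and *Plaur* (r of 0.970, 0.955 and 0.940), with its best member, *Il36g*, at 0.894. Those most like *Il33* were *Stat3*, *Ndrg1* and *Akr1b8* (r of 0.984, 0.981 and 0.978). Within groups, after removing the group means, *Il36a* deviated with *Il36rn* (r = 0.882 over 12 libraries) and against *Il33* (r = -0.666), and these values have no test.

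Of the receptors and other family genes, 9 of 11 were tested. In WT, IMQ raised 3 of them and lowered 1, where 14.2% of all genes tested were called higher and 14.3% lower. *Il18rap*, the accessory chain of the IL-18 receptor, rose by 1.60 on the log2 scale (adjusted p = 0.00772), *Il1rap*, the shared accessory chain, by 0.93 (adjusted p = 0.000262) and *Il1r1*, the signalling IL-1 receptor, by 0.75 (adjusted p = 0.0180). *Il1f10*, another cytokine of the cluster on chromosome 2, fell by 2.58 (adjusted p = 0.0198), from 37, 46 and 29 counts to 3, 5 and 7. The median of the list was 0.31, against 3.15 for the 10 members.

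Among mice labelled Lcn2-/-, 4 rose and 1 fell, where 14.1% of all genes tested were called higher and 11.2% lower. *Il1rl1*, the IL-33 receptor, rose by 1.90 (adjusted p = 0.00796), *Il18rap* by 1.72 (adjusted p = 0.00629), *Il18bp*, which traps IL-18, by 1.02 (adjusted p = 0.0400) and *Il1rap* by 0.83 (adjusted p = 0.000888), and *Il1f10* fell by 2.94 (adjusted p = 0.0129). The decoy receptor *Il1r2* had log2 differences of -0.26 in WT and 0.24 in mice labelled Lcn2-/-, and *Il18r1*, the ligand-binding chain of the IL-18 receptor, of -0.86 and -0.69, and none of these was called. In WT, *Il1rl1* (0.95, adjusted p = 0.107) and *Il18bp* (0.31, adjusted p = 0.501) were not called. Between the IMQ groups edgeR, limma voom and DESeq2 called 0 of the 9, and only *Il1r1* had an unadjusted p under 0.05 in edgeR.

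Of 20 signalling genes downstream of these receptors, 10 rose and 0 fell in WT, and 8 rose and 1 fell in mice labelled Lcn2-/-. Over all genes tested 14.2% were called higher in WT and 14.1% in mice labelled Lcn2-/-. In WT, *Nfkbiz*, which encodes IκBζ, the NF-κB cofactor induced by IL-36 and IL-17, rose by 2.36 (adjusted p = 0.000213), *Traf6* by 1.15 (adjusted p = 0.000469), *Nfkbia* by 0.92 (adjusted p = 0.0138), *Myd88* by 0.92 (adjusted p = 0.000982) and *Irak4* by 0.83 (adjusted p = 0.0145). In mice labelled Lcn2-/- the 5 of largest rise were *Irak4* (1.35), *Nfkbia* (0.92), *Irak2* (0.78), *Traf6* (0.63) and *Myd88* (0.53), with adjusted p values between 0.00156 and 0.0235, and *Tab1* fell by 0.50 (adjusted p = 0.0343), a call that DESeq2 made and limma voom did not. *Nfkbiz* had 1832, 1067 and 2173 counts in those controls and 1885, 1404 and 1709 after IMQ, a log2 difference of 0.49 (adjusted p = 0.234), and its IMQ response differed between the genotypes by -1.88 (SE 0.41, adjusted p = 0.0432). Without WT IMQ 1, or without WT IMQ 3, 0 of all genes were called lower in that interaction. Between the IMQ groups edgeR and limma voom called 0 of the 20, DESeq2 called 3 lower, and 6 had an unadjusted p under 0.05 in edgeR and a lower level, against 14.5% of all genes tested.

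The genes of the inflammasome, the system in which caspase-1 is activated to cleave pro-IL-1β and pro-IL-18, had a median log2 change of 0.63 in WT and 0.78 in mice labelled Lcn2-/-. Of 10, 3 rose in WT, against 14.2% of all genes tested, namely the DNA sensor *Aim2* (1.51, adjusted p = 0.00121), *Casp4* (1.42, adjusted p = 0.00800) and the adaptor *Pycard* (0.90, adjusted p = 0.00168). In mice labelled Lcn2-/-, *Nlrc4* (2.18, adjusted p = 0.00687) and *Aim2* (1.05, adjusted p = 0.0107) rose, 2 of 10 against 14.1% of all genes tested. *Casp1* had log2 differences of 0.35 (adjusted p = 0.193) and 0.18 (adjusted p = 0.511) and was not called. Between the IMQ groups *Pycard* was lower in mice labelled Lcn2-/-, by -0.77 on the log2 scale (adjusted p = 0.0313), and was the only call of the list by edgeR, limma voom and DESeq2. The edgeR call on *Pycard* did not hold without WT IMQ 1, WT IMQ 3, or IMQ 2 or 3 labelled Lcn2-/-. In those fits 0 of all genes were called lower.

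Proteases that trim IL-1 family cytokines were tested for 9 of 10 genes. *Capn2* (0.77, adjusted p = 0.00228) and *Casp8* (0.46, adjusted p = 0.0264) rose in WT, and the neutrophil protease gene *Prtn3* fell by 2.14 (adjusted p = 0.0424), with 81, 208 and 33 counts in the controls and 8, 30 and 17 after IMQ, a call that DESeq2 made and limma voom did not. Over all genes tested 14.2% were called higher and 14.3% lower in WT. In mice labelled Lcn2-/- 4 rose, namely *Ctss*, which encodes the protease cathepsin S that cleaves IL-36γ, by 1.61 (adjusted p = 0.00552), the mast cell chymase *Cma1* by 1.29 (adjusted p = 0.00292), *Casp8* by 0.70 (adjusted p = 0.00408) and *Capn2* by 0.68 (adjusted p = 0.00585), against 14.1% of all genes tested. Between the IMQ groups edgeR and limma voom called 0 of the 9, DESeq2 called *Cma1*, and only *Cma1* had an unadjusted p under 0.05 in edgeR.

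Genes that IL-1 and IL-36 are known to induce in skin were tested for 17 of 18. In WT 15 rose and 0 fell, with a median log2 change of 5.11, and in mice labelled Lcn2-/- 10 rose and 1 fell, with a median of 1.94. Over all genes tested 14.2% and 14.1% were called higher and 14.3% and 11.2% lower. In WT the largest rises of genes counted in every control were *Saa3* (9.44, adjusted p = 1.95e-05), an acute-phase protein gene, and *S100a9* (9.40, adjusted p = 3.24e-06) and *S100a8* (9.25, adjusted p = 1.66e-05), which encode the chains of calprotectin. *Csf3*, which encodes the neutrophil growth factor G-CSF, had 0 counts in each WT control and 100, 70 and 69 counts in WT IMQ, at least 99.9-fold higher against a floor of 3 counts over the control group. The antimicrobial peptide gene *Defb4* had 0, 2 and 0 counts in WT control and 163, 196 and 276 in WT IMQ.

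In mice labelled Lcn2-/-, *Saa3* rose by 9.03 (adjusted p = 4.84e-05), *S100a8* by 8.03 (adjusted p = 6.02e-05) and *S100a9* by 7.68 (adjusted p = 2.00e-05). *Defb4* had 1, 1 and 0 counts in those controls and 95, 50 and 172 after IMQ, and the neutrophil chemokine gene *Cxcl3* had 0, 0 and 2 counts and then 143, 32 and 77. *Ccl20*, the ligand of CCR6, fell by 3.09 (adjusted p = 0.00170), from 346, 164 and 361 counts to 25, 40 and 6. *Csf3* had 0, 0 and 16 counts and then 16, 19 and 9, and was called higher by limma voom but not by edgeR or DESeq2.

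Between the IMQ groups 2 of the 17 were called lower in mice labelled Lcn2-/-, against 2.6% of all genes tested. *Il17c*, an epithelial cytokine, had 33, 28 and 44 counts in WT IMQ and 4, 2 and 4 in IMQ libraries labelled Lcn2-/- (log2 fold change -3.29, SE 0.55, adjusted p = 0.0219). *Ccl20* had 103, 127 and 95 counts against 25, 40 and 6 (log2 fold change -2.19, SE 0.50, adjusted p = 0.0393). The other 15 were not called by edgeR, while limma voom called *Csf3*, *Cxcl1*, *Il17c* and *Ptgs2*, and DESeq2 called *Ccl20*, *Cxcl1* and *Ptgs2*. Neither edgeR call held without WT IMQ 1, WT IMQ 3, or IMQ 2 or 3 labelled Lcn2-/-. In those fits 0 of all genes were called lower.

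**Figure D5:**
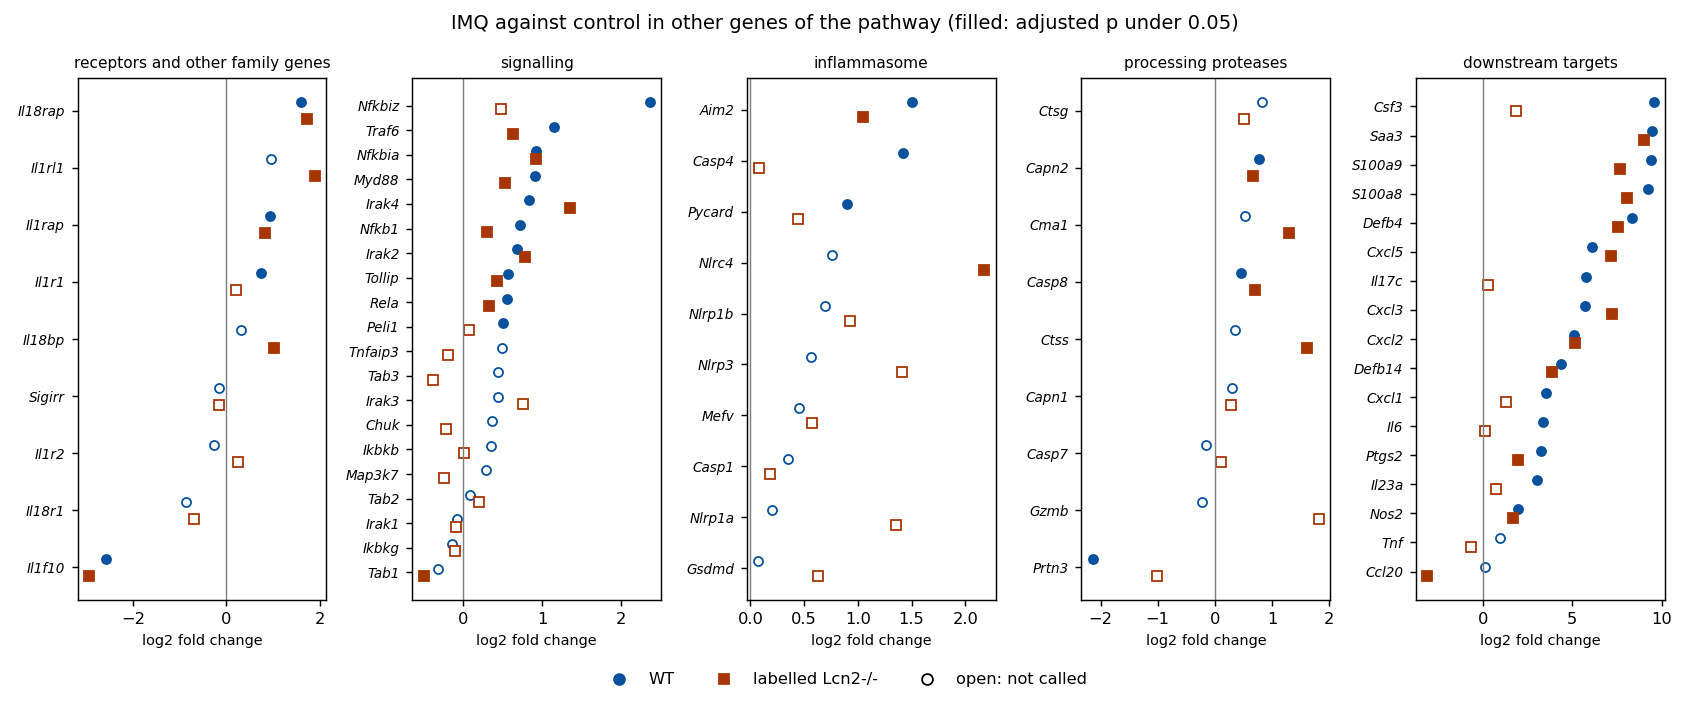
Log2 fold change of IMQ against control (horizontal axes, a different range in each panel) for the tested genes of 5 lists around the cytokines, in WT mice (circles) and in mice labelled Lcn2-/- (squares), filled where the adjusted p was under 0.05 and ordered by the WT value. The downstream targets reach log2 values above 9 while receptors stay under 2, and the WT value of *Csf3* is a fitted value against controls with 0 counts.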

How the data were processed

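RNA of back skin from 12 mice was sequenced as paired reads of 150 bp. The authors deposited raw counts for 56923 genes, listed by Ensembl identifier, in every library. The submitters' processing notes name HISAT and mm8; the counting tool, its annotation and its use of strand are not given in the sources used here. Whole counts summed to between 16448226 and 28592110 per library. Names, positions and lengths came from GENCODE M21 (GRCm38), which holds 52073 of the identifiers (91.5%); those without a match held 0.567% of the counts, and 68 identifiers that shared a symbol with a more abundant one were set aside. No file with fold changes was used.

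Size factors were made by TMM, and edgeR 4.0.16 in R 4.3.3 was used for the tests, with 1 mean per group, all 12 mice in 1 robust quasi-likelihood model and 18529 genes left by filterByExpr (at least 10 counts, at least 15 in total). A gene was called with a Benjamini-Hochberg adjusted p under 0.05 over all genes tested. The common biological coefficient of variation was 0.253. CPM values used TMM library sizes, and log2 CPM for correlations a prior count of 2. Intervals are at 95%. The scripts were tested on simulated counts, and no pair of libraries of a group agreed within sampling noise. The simulation used the spread estimated by edgeR and changed 200 genes 4-fold in WT IMQ. At the same threshold, 43 of 209 DESeq2 calls were false, against 8 of 153 by edgeR and 5 of 150 by limma voom. DESeq2 recovered 166 of the 200 genes, and edgeR and limma voom 145 each. Calls made by DESeq2 alone are to be read with that error rate in mind. Each mouse was 1 library, so p-values measure the spread between mice.

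The members and all gene lists were chosen with earlier results of these data known. All 10 members and *Lcn2* are named in every comparison. Of each pathway list, at most the 5 largest changes called per comparison are named, besides *Il1r1*, *Il1rap*, *Il1r2*, *Il1rl1*, *Il18r1*, *Il18rap*, *Il18bp* and *Casp1*, and for *Il1b*, *Il36a* and *Il33* the 3 genes of highest Pearson r. A gene of the protease list is not reported here. Genes in counts of 5 or fewer outside this rule were named after their values were seen. The methods of the study name DESeq2, which was run as an alternative (DESeq2 1.42.0), beside limma voom (limma 3.58.1), RLE and upper-quartile scaling, no filter, at least 10 counts in every library, the replicate block, the compared mice only, each library left out in turn, calls that also needed a fold change above 2, 1 count added to each ratio, and the longest transcript as the length. Promoter sequences came from RefSeq (GRCm38.p6). Figures were drawn with matplotlib 3.10.9.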

Additional observations from a re-analysis of the deposited data

Results flagged for a closer look

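The IMQ response of 3 genes differed between mice labelled Lcn2-/- and WT by a test of the difference itself (edgeR interaction, 12 mice). The response of *Il36a* was smaller by -1.84 on the log2 scale in mice labelled Lcn2-/- (SE 0.35, adjusted p = 0.0311), that of *Il1a* by -1.63 (SE 0.31, adjusted p = 0.0310) and that of *Il1rn* by -1.29 (SE 0.26, adjusted p = 0.0375). All 3 kept a negative sign in every fit run, and all 3 were called by edgeR, limma voom and DESeq2 on all 12 mice, but none was called with the replicate block (adjusted p of 0.0610 for *Il36a* and 0.0628 for *Il1a* and *Il1rn*). The calls also depended on single mice. With each of the 12 libraries left out in turn, *Il36a* was called in 3 of 12 fits, *Il1a* in 4 and *Il1rn* in 3. *Lcn2*, which was still counted in every library labelled Lcn2-/-, had an interaction of -2.36 (SE 0.57, adjusted p = 0.0552).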

How the results depend on the processing

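The number of members called was 9 or 10 in WT (9 without WT control 1, WT IMQ 1 or WT IMQ 2, where *Il18* was lost, and 9 where a fold above 2 was needed, which *Il1rl2* did not reach) and between 7 and 9 in mice labelled Lcn2-/- under the alternatives run. Between the IMQ groups (2 members called), 1 was called with the replicate block, 4 by DESeq2 on the compared mice only, 1 with more than a 2-fold difference and either p, and between 0 and 3 without 1 library. Over all genes 481 of 18529 were called lower, 59 of 18529 with the block and 1370 of 16620 by DESeq2 on the compared mice. Between the controls (0 called), 1 was called by DESeq2 on all 12 mice, 2 by DESeq2 on the compared mice, and 2 by unadjusted p with more than a 2-fold difference. For the interaction (3 called), 0 were called with the replicate block, 5 by DESeq2, 5 by unadjusted p with more than a 2-fold difference, and between 0 and 5 without 1 library; over all genes 145 of 18529 were called lower, 3 of 18529 with the block and 870 of 17814 by DESeq2. Same-numbered mice are different animals whose deviations correlated between -0.55 and 0.20, so the numbers do not pair them, and the calls lost under the block are not read as weaker effects.

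Signs turned for *Il1b* between the IMQ groups without 1 library (-0.61 to 0.18), and between the controls for *Il1rl2* (0.002 with RLE, 0.0011 with DESeq2, -0.11 to 0.085 without 1 library), *Il33* (-0.24 to 0.27 without 1 library) and *Il18* (0.0043 with RLE, 0.0047 on the compared mice, 0.0021 with DESeq2, -0.19 to 0.23 without 1 library), none of them called. The cause was not tested. With the longest transcript as the length, the level per kb in WT control and WT IMQ became 3.91 in control for *Il1b*, 13.8 and 50.7 for *Il1rn*, 23.3 and 131 for *Il36rn*, 29.3 and 49.2 for *Il1rl2*, and 89.9 in IMQ for *Il33*. Each ratio moved by less than 1 SD with 1 count added. With 3 mice a group and a coefficient of variation of 0.253, small differences in variable genes such as *Il1b* cannot be seen.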
